A study of Mus musculus with 11 samples.

Results

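The comparison described here set ribosome footprints of the cortex opposite a stroke against footprints of cortex from sham-operated mice. Its members are the 4 contralateral libraries (replicates 1, 4, 5 and 6) and the 3 sham libraries (replicates 1, 2 and 5), chosen by their labels, 7 of the 11 libraries of the series. Each gene was represented by the transcript with the highest summed count over all 11 libraries, which gave 4338 genes, of which 3835 had enough counts to be tested. The animals were wild-type C57BL6 mice aged 7 to 8 weeks. In the stroke animals a nylon filament closed the right middle cerebral artery, with the common carotid artery tied, for 35 min under isoflurane (middle cerebral artery occlusion, MCAO), and cortex was taken after 3 h of reperfusion. Accepted animals had a residual cerebral blood flow under 15% and a recovery above 80%. Sham animals were anesthetized and had the arteries exposed for the same period, with no filament. The sources used here do not say which side the sham cortex came from, so a difference from sham cannot be told apart from a difference between sides. The remaining 4 libraries are from the occluded (ipsilateral) hemisphere and entered the model only to share its estimate of spread and to test differences between hemispheres. Their titles say ipsilateral whereas their tissue entry says contralateral, and the titles were followed.

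A ribosome footprint is a short piece of messenger that nuclease cannot reach because a ribosome sits on it, so footprint counts follow both the amount of a messenger and how densely it is translated. Total RNA was not analysed here, so those cannot be told apart, and in such bulk tissue neither can fewer cells of a type and less RNA per cell. The hemisphere opposite a filament stroke keeps its own blood supply and is often used as the within-animal control, while a sham animal has had the anesthesia and neck surgery without ischemia. Immediate early genes, such as Fos, Egr1 and Arc, are transcribed within minutes of strong synaptic activity and are widely read as markers of recent neuronal activity. Endoplasmic reticulum chaperones, such as BiP (gene Hspa5) and GRP94 (gene Hsp90b1), fold secreted and membrane proteins and are induced together by the unfolded protein response.

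Sham libraries held 64460 to 256657 counts over the genes and contralateral libraries 137372 to 571351. Sham replicate 2 was the shallowest of the 7 and stood apart on the first principal component, at 43.2 against -10.8 to -1.10 for the other 6 libraries. The replicate number names the day of surgery, and days 1 and 5 hold both a sham and a contralateral library. The neuronal content of the tissue was visible in the counts, though neuron markers alone do not tell cortex from other brain regions. All 22 tested of 24 neuron markers summed to 33735 to 37032 CPM (a count relative to the library total after TMM scaling, the usual normalised read count) in sham and 32507 to 37587 CPM in contralateral libraries. Markers of single regions and of other cell types were present too. Of 22 fixed markers of striatal projection neurons 7 were tested. So were 5 of 16 markers of red blood cells and leukocytes, and 4 of 26 endothelial and pericyte markers. The 13 mitochondrially encoded genes are not analysed here.

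No gene passed the test between contralateral and sham cortex after correction. The smallest unadjusted p belonged to Ppp1r1b, Hba-a1, Hba-a2 and Fos on the lower side and to Cdh8, Dhcr7, Prg4 and Hsp90b1 on the higher side. At an edgeR adjusted p under 0.05, 0 genes were higher and 0 were lower (0% of 3835 in either direction). At an unadjusted p under 0.05 edgeR gave 97 higher (2.53%) and 120 lower (3.13%), together 5.66% of the tested genes. The smallest adjusted p was 0.244, for Ppp1r1b. The log2 change (contralateral minus sham) had a median of -0.004 and quartiles of -0.196 and 0.173, and 49.3% of the genes lay above 0. Every contralateral library lay above every sham library for 130 genes (3.39%) and below for 165 (4.3%), together 7.69%. Other tools on the same 11 libraries gave 0 calls with limma-voom and 2 with DESeq2, both lower contralaterally: Egr1 and Fos, each at a DESeq2 adjusted p of 0.0432. Without sham replicate 5, edgeR called 3 genes lower, Egr1 (adjusted p = 1.4e-04), Fos (3.6e-04) and Nr4a1 (0.0424), and none higher. The values that follow therefore describe these 7 libraries, and a gene is said to differ only where a test named beside it passed. With 3 libraries against 4, an exact two-sided permutation test of a single value could not go below p = 0.0571.

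**Figure D1:**
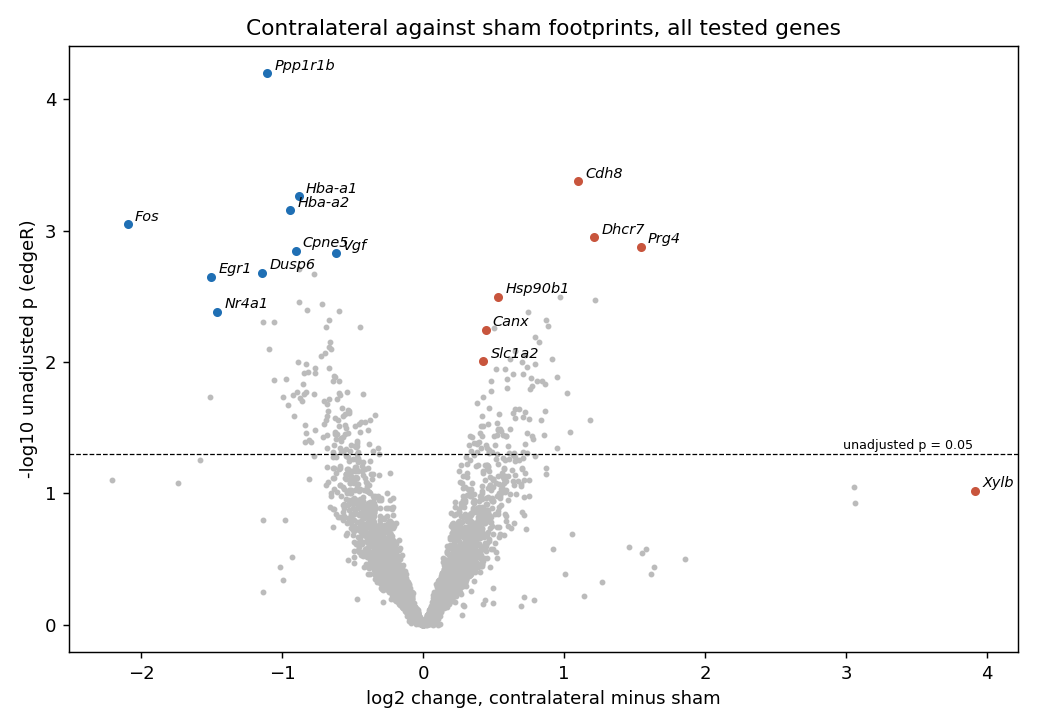
Each grey point is 1 of the 3835 tested genes, with the log2 change (contralateral minus sham) on the horizontal axis and -log10 of the unadjusted edgeR p on the vertical axis. Named genes with lower contralateral values are blue and those with higher values red, and the dashed line marks an unadjusted edgeR p of 0.05. Ppp1r1b stands highest among the lower genes and Cdh8 among the higher, while Xylb, at the far right with a log2 change of 3.92, lies below the line.

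The immediate early gene lists had the lowest medians among the activity-related lists. Of the AP-1 transcription factors, the Fos and Jun proteins that bind DNA as dimers, 4 of 9 were tested and 3 had lower contralateral values, with a median log2 change of -0.71 against -0.004 over all genes. Of 11 tested other immediate early genes, 10 had lower contralateral values (median log2 change -0.31), and 5 of the 11 had an unadjusted edgeR p under 0.05 on the lower side, where 3.13% of all genes did. These 5 were Dusp6, Egr1, Nr4a1, Per1 and Arc. Sham replicate 5 stood with the contralateral libraries for several of them, as the values by library show.

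Fos (chr12:85473890-85477273, mm10, plus strand) encodes the inducible partner in AP-1. It measured 161, 173 and 37.1 CPM in sham replicates 1, 2 and 5. Contralateral replicates 1, 4, 5 and 6 measured 13.5, 7.65, 33.6 and 32.0 CPM. The groups did not overlap, but sham replicate 5 lay just above contralateral replicate 5, from the same surgery day. These levels rest on few reads: 41, 11 and 7 counts in sham and 2, 1, 10 and 18 contralaterally. The log2 change was -2.09 ± 0.52 (SE; edgeR adjusted p = 0.636). Within surgery day 1 the difference was -3.40 and within day 5 it was -0.13, on the log2(CPM + 2) scale. Ipsilateral cortex measured 172, 205, 124 and 361 CPM in replicates 2, 4, 5 and 6, and the hemispheres differed by 3.03 ± 0.48 (log2, ipsilateral minus contralateral; edgeR adjusted p = 0.00609).

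Egr1, a zinc-finger transcription factor, measured 636, 550 and 201 CPM in sham and 168, 130, 168 and 167 CPM in contralateral libraries. The contralateral values were tight (158 ± 18.9 CPM, SD, n = 4) and all lay below the lowest sham library, while the sham values spread widely (462 ± 230.2 CPM, SD, n = 3). Its log2 change was -1.50 ± 0.39 (SE; edgeR adjusted p = 0.663). Nr4a1, an orphan nuclear receptor, measured 188, 94.2 and 47.7 CPM in sham and 80.8, 15.3, 33.6 and 44.4 CPM contralaterally. Here the groups overlapped, because contralateral replicate 1 exceeded sham replicate 5. Arc, a synaptic protein that promotes endocytosis of AMPA receptors, measured 416, 220 and 111 CPM in sham and 87.6, 61.2, 138 and 72.8 CPM contralaterally, with a log2 change of -1.51 ± 0.53 (SE; edgeR adjusted p = 0.798). Contralateral replicate 5 lay above sham replicate 5, and the difference within day 5 was 0.31 against -2.22 within day 1 (log2).

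Dusp6, a phosphatase that switches off ERK kinases, measured 236, 236 and 148 CPM in sham and 121, 30.6, 111 and 88.8 CPM contralaterally, without overlap (log2 change -1.14 ± 0.33, SE; edgeR adjusted p = 0.663). Per1, a clock gene that also responds to activity and glucocorticoids, measured 102, 157 and 132 CPM in sham. Its contralateral values were 53.5, 63.9 and 55.1 CPM in replicates 4, 5 and 6 but 121 CPM in replicate 1, so the difference had opposite signs within day 1 (0.24) and day 5 (-1.03). Junb, an AP-1 partner that restrains Jun, had a log2 change of -0.79 ± 0.36 (SE; edgeR adjusted p = 0.876). Jund, the constitutively expressed Jun protein, did not overlap between groups (58.5 ± 16.8 CPM contralaterally, SD, n = 4; 109 ± 55.3 CPM in sham, SD, n = 3), and 877 nt of its transcript overlap an antisense gene, so reads of the pair may be mixed. Jun itself was the AP-1 gene on the other side of 0, at 0.21 ± 0.46 (SE).

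The summed level of the 11 other immediate early genes ran from 1779 to 2697 CPM in sham, with replicate 5 lowest, and from 1262 to 1655 CPM contralaterally, with replicate 5 highest. Within day the median log2 difference was -0.47 on day 1 and -0.19 on day 5. Leaving out 1 library at a time kept the list's median between -0.29 and -0.48, and it was -0.66 in a fit with the surgery day as a block.

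**Figure D2:**
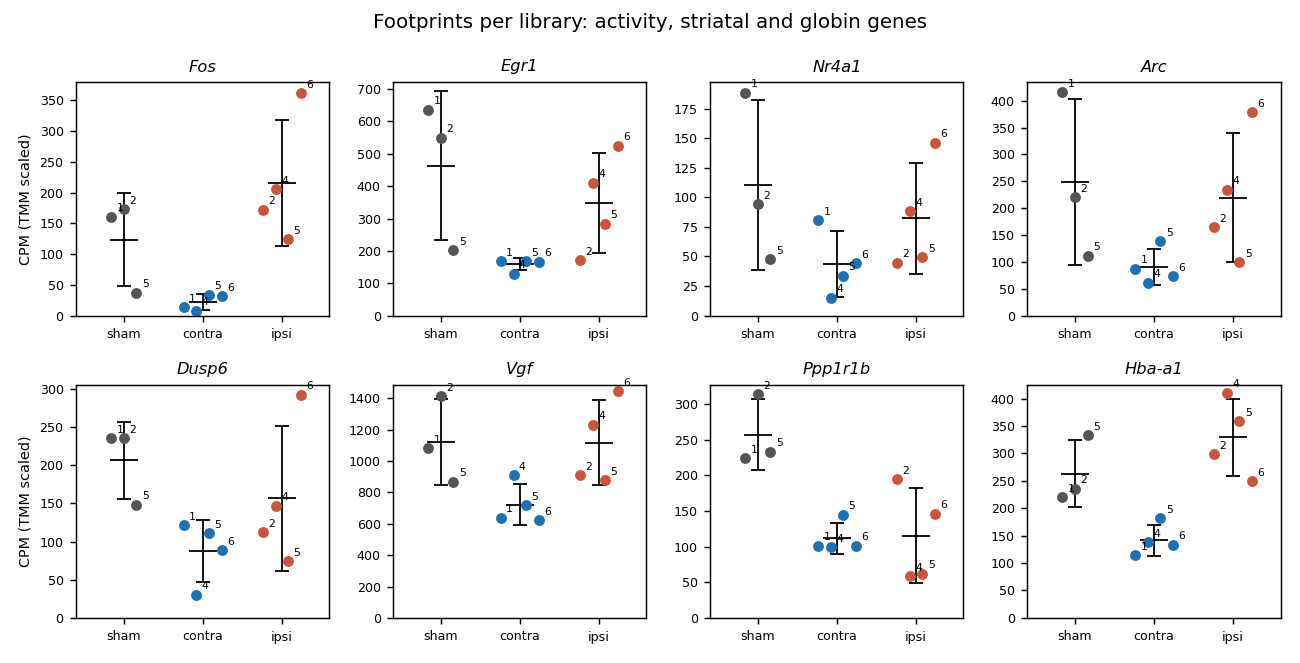
Footprints of 8 genes in CPM (vertical axis, starting at 0, scale differs by panel) in sham, contralateral and ipsilateral libraries. Each point is a library, labelled with its replicate number, and the bar with whiskers is the group mean ± SD. For Fos, Egr1 and Arc sham replicate 5 is the lowest sham library, and of these genes only Arc overlaps between groups. For Ppp1r1b and Hba-a1 too, all 3 sham libraries lie above all 4 contralateral ones.

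Later activity-regulated genes had no common direction: 11 of 21 had values above 0 and 10 below, with a median log2 change of 0.00. On the lower side 3 of the 21 had an unadjusted edgeR p under 0.05, against 3.13% of all genes. Vgf, a neurotrophin-induced precursor of secreted peptides, measured 1084, 1414 and 868 CPM in sham and 640, 910, 720 and 622 CPM contralaterally. Contralateral replicate 4 lay above sham replicate 5 and the other 3 lay below every sham library (log2 change -0.62 ± 0.18, SE; edgeR adjusted p = 0.636). Ptgs2, the inducible cyclooxygenase, measured 86.4, 141 and 90.0 CPM against 33.7, 53.5, 53.8 and 56.8 CPM, with no overlap. Rgs2, which shortens G-protein signals, measured 98.2, 110 and 74.1 CPM in sham against 26.9, 7.65, 60.6 and 63.9 CPM, again with no overlap.

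Npy, the neuropeptide of a class of cortical interneurons, was the only member of this list with an unadjusted edgeR p under 0.05 on the higher side. It measured 185, 157 and 228 CPM in sham and 249, 306, 293 and 311 CPM contralaterally, and every contralateral library was above every sham library. Its log2 change was 0.58 ± 0.22 (SE; edgeR adjusted p = 0.771). Nptx2, a secreted pentraxin that clusters AMPA receptors, measured 143 ± 13.7 CPM in sham (SD, n = 3) and 98.2 ± 10.2 CPM contralaterally (SD, n = 4), without overlap (log2 change -0.49 ± 0.30, SE). The hemispheres differed for Nptx2 by 1.56 ± 0.28 (log2; edgeR adjusted p = 0.00247). Bdnf, a neurotrophin, had a log2 change of -0.02 ± 0.37 (SE), and its sign changed with the library left out.

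Striatal projection neuron markers had the lowest median of all lists with at least 4 tested genes, -0.92 on the log2 scale, and 6 of 7 had lower contralateral values. At an unadjusted edgeR p under 0.05, 4 of the 7 were lower, where 3.13% of all genes were. Ppp1r1b (chr11:98348404-98357796, mm10, plus strand) encodes DARPP-32, the dopamine-regulated phosphatase inhibitor of striatal neurons, which some cortical neurons also make. It measured 224, 314 and 233 CPM in sham and 101, 99.4, 145 and 101 CPM contralaterally. The groups were far apart, and contralateral replicate 5 was the highest of its group. The means were 257 ± 49.7 CPM (SD, n = 3) and 112 ± 22.1 CPM (SD, n = 4), with a log2 change of -1.11 ± 0.25 (SE; edgeR adjusted p = 0.244). Within day 1 the difference was -1.13 and within day 5 it was -0.68. Over the alternatives tried, the change lay between -1.27 and -0.91 and its adjusted p between 0.0850 and 0.999.

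Adcy5, the striatal adenylyl cyclase, had a log2 change of -0.99 ± 0.40 (SE; edgeR adjusted p = 0.798), and Arpp21, a phosphoprotein regulated by cyclic AMP, -0.60 ± 0.27 (SE; edgeR adjusted p = 0.862). Penk and Tac1, the peptide precursors of the indirect and direct striatal pathways, are given here after their values were seen, because they split the contralateral group. Penk measured 456, 393 and 201 CPM in sham and 424, 76.5, 77.4 and 163 CPM contralaterally. Tac1 measured 43.2, 47.1 and 58.2 CPM in sham and 155, 22.9, 33.6 and 30.2 CPM contralaterally. For both genes contralateral replicate 1 stood far above the other 3 contralateral libraries.

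The summed level of the 7 striatal markers was 900 to 1366 CPM in sham. In contralateral cortex it was 1152 CPM in replicate 1, within the sham range, and 535 to 627 CPM in replicates 4, 5 and 6. Without contralateral replicate 1 the list's median was -1.03, and without sham replicate 1 it was -0.41. Ipsilateral libraries ran from 482 to 1054 CPM. Whether the share of striatal tissue in the dissected cortex differed between libraries was not tested. Cortical layer markers were close to 0 as a list (median 0.01, 7 of 12 above 0).

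Globin messengers, used here as markers of red blood cells, had lower contralateral values. Whether the blood content of the tissue differed between libraries was not tested. The red blood cell and leukocyte list had 5 tested members, all on the lower side (median log2 change -0.53), and 4 of the 5, the globins, had an unadjusted edgeR p under 0.05 (3.13% of all genes on that side). The 4 are near-copy pairs and not separate measurements. Without sham replicate 1 the list's median was -0.315. Hba-a1 measured 220, 236 and 334 CPM in sham and 115, 138, 182 and 133 CPM contralaterally. No library of one group reached the other, and the log2 change was -0.88 ± 0.24 (SE; edgeR adjusted p = 0.636). Hba-a2 is a near copy (91.7% of its 28-nt words also occur in other genes), so its log2 change of -0.94 ± 0.26 (SE) is not a separate measurement. Hbb-bs measured 385, 236 and 307 CPM in sham and 182, 153, 306 and 222 CPM contralaterally, with overlap. On day 5 the sham and contralateral beta globins were at the same level (difference of 0.00 for Hbb-bs), and on day 1 they differed by -1.07 (log2). Coro1a, an actin-binding protein of leukocytes, had -0.29 ± 0.23 (SE). Ipsilateral cortex had higher Hba-a1 than contralateral cortex (log2 difference 1.13 ± 0.23, SE; edgeR adjusted p = 0.00987).

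**Figure D3:**
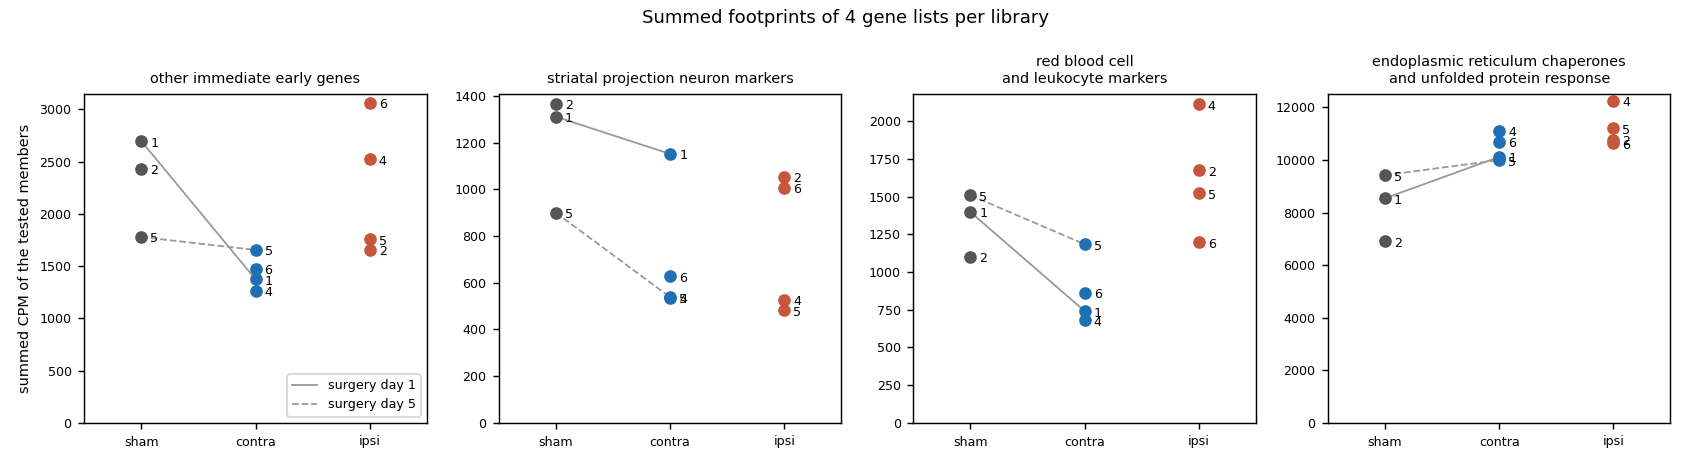
Summed CPM of the tested members of 4 gene lists (vertical axis, starting at 0) in each library, by group, with replicate numbers beside the points. Grey lines join the sham and contralateral libraries of surgery day 1 (solid) and day 5 (dashed). The striatal sum of contralateral replicate 1 (1152 CPM) lies among the sham libraries, and all contralateral sums of the endoplasmic reticulum list (9996 to 11120 CPM) lie above the sham ones (6911 to 9425 CPM).

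Endoplasmic reticulum chaperones and unfolded protein response genes leaned the other way. Of 18 tested members, 16 had higher contralateral values, against 49.3% of all genes, and the median log2 change was 0.24. Every contralateral library lay above every sham library for 5 of the 18 (3.39% of all genes): Hspa5, Hsp90b1, Canx, Hyou1 and Atf6. An unadjusted edgeR p under 0.05 on the higher side was reached by 2 of the 18, Hsp90b1 and Canx (2.53% of all genes). The summed level was 9996 to 11120 CPM contralaterally and 6911 to 9425 CPM in sham, where the shallow replicate 2 was lowest. Without sham replicate 2 the median was 0.19, with 15 of 18 above 0, and with the surgery day as a block it was 0.19, with 13 of 18. Within day 1 the median was 0.19 and within day 5 it was 0.05.

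The promoters of this list are shown because many of its genes share a printed motif, the endoplasmic reticulum stress element (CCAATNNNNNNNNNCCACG), to which ATF6 and NF-Y are known to bind. Within the 250 bases before the start, on either strand, it occurred in 7 of the 16 list members with a RefSeq promoter entry (Hspa5, Hsp90b1, Calr, Canx, Pdia6, Dnajc3 and Syvn1) and in 37 of 32851 promoters of that length in all (0.113%). This list was drawn up from known endoplasmic reticulum chaperones and unfolded protein response genes, so the contrast was not a test of the footprints. The 7 are genes whereas the 37 are promoter entries, and a gene can have several. Other motifs were searched in the same windows of 3 lists. The cAMP response element (TGACGTCA) was in 0 of 4 AP-1 genes, 1 of 8 other immediate early genes (Plk2) and 0 of 16 genes of the endoplasmic reticulum list, against 1.55% of all promoters. The serum response element (CArG box) was in none of these lists' promoters, against 1.47%. The endoplasmic reticulum stress element was in neither list of immediate early genes. The search took only these patterns within 250 bases, so variants and sites farther out were missed. With so few promoters and such low shares, these absences do not show that the genes lack the elements. The 4 sequences below are from RefSeq (GRCm38.p6, the mm10 assembly), 5′ to 3′ on the gene's strand, with the element in capitals: Hspa5 from chr2:34771840-34772089 (plus strand), Hsp90b1 from chr10:86705445-86705694 (minus), Canx from chr11:50325674-50325923 (minus) and Calr from chr8:84846932-84847181 (minus). In Hspa5 the element spans positions -65 to -47 from the start, in Canx -145 to -127 and in Calr, on the opposite strand, -162 to -144. Hsp90b1 holds 2 of them, the first at -212 to -194.
Hspa5: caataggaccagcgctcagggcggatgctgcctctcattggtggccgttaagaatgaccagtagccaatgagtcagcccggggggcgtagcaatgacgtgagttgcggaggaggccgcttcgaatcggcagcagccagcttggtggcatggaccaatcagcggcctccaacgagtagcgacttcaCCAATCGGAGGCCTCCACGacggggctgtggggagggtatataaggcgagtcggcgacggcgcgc
Hsp90b1: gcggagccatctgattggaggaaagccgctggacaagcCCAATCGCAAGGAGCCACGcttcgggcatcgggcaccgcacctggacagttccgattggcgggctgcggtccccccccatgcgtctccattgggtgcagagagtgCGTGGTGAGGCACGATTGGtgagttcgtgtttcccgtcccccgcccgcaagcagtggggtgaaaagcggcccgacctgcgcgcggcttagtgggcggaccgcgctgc
Canx: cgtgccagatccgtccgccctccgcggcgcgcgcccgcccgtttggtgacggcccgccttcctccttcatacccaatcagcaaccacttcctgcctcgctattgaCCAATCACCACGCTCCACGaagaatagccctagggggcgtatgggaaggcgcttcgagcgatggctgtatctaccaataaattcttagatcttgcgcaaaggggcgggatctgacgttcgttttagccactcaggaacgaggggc
Calr: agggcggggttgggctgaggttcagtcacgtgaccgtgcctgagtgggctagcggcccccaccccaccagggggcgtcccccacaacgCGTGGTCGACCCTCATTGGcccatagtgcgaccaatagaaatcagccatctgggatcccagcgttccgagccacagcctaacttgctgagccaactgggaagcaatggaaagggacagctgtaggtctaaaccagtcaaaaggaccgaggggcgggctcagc
A match describes these letters only. Of the list's genes without the element, P4hb, a disulfide isomerase, had a log2 change of 0.45 ± 0.24 (SE), and Pdia3, another, had 0.27 ± 0.15 (SE).

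Hsp90b1, the GRP94 chaperone with 2 elements in its promoter, measured 1162, 707 and 1477 CPM in sham and 1603, 1583, 1504 and 1907 CPM contralaterally. The lowest contralateral library was just above the highest sham library, sham replicate 5. The log2 change was 0.53 ± 0.17 (SE; edgeR adjusted p = 0.701), with 0.46 within day 1 and 0.03 within day 5. Its transcript overlaps a gene on the opposite strand by 415 nt. Canx, the membrane-bound lectin chaperone calnexin, measured 1186, 958 and 1271 CPM in sham and 1421, 1820, 1538 and 1494 CPM contralaterally, without overlap (0.44 ± 0.15, SE; edgeR adjusted p = 0.701). Its differences within day 1 (0.26) and day 5 (0.27) were alike. Hspa5, the central chaperone BiP, measured 1107, 974 and 1234 CPM in sham and 1307, 1423, 1477 and 1297 CPM contralaterally, also without overlap (0.30 ± 0.15, SE; edgeR adjusted p = 0.880).

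Other members were smaller or rested on fewer reads. Calr, the soluble lectin chaperone calreticulin, had a log2 change of 0.23 ± 0.15 (SE). Atf6, the sensor that activates these genes after cleavage, had the highest value of the list, 0.58 ± 0.34 (SE; edgeR adjusted p = 0.940), at 37.1 to 70.7 CPM in sham. Hyou1, a large chaperone that releases nucleotide from BiP, had 0.20 ± 0.19 (SE), and Herpud1, a degradation factor, 0.42 ± 0.24 (SE). Fkbp2, a prolyl isomerase of the endoplasmic reticulum that was not in the list, was among the 15 higher genes with the smallest p: 106, 126 and 127 CPM in sham against 155, 214, 202 and 172 CPM (0.65 ± 0.23, SE; edgeR adjusted p = 0.771). Ipsilateral cortex did not differ from contralateral cortex beyond the threshold for Hsp90b1 (log2 difference -0.12 ± 0.16, SE), Canx (-0.11 ± 0.14, SE) or Hspa5 (0.49 ± 0.14, SE; edgeR adjusted p = 0.174).

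**Figure D4:**
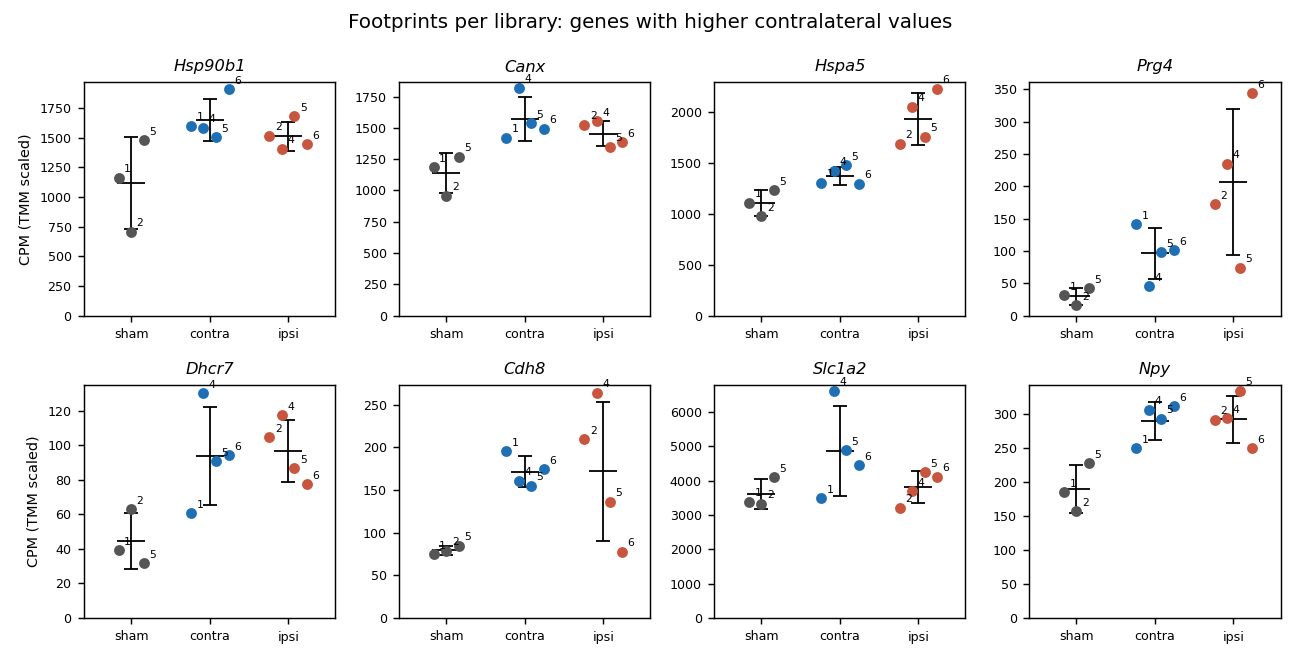
Footprints of 8 genes in CPM (vertical axis, starting at 0, scale differs by panel) by group, with 1 point per library, its replicate number, and the group mean ± SD. Contralateral points lie above all sham points for Hsp90b1, Canx, Hspa5, Prg4, Cdh8 and Npy. For Slc1a2 contralateral replicate 4 (6623 CPM) stands above the other libraries.

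Cytosolic heat shock proteins, by contrast, centred on 0: 13 of 25 lay above 0 and 12 below (median 0.03). The inducible HSP70 genes Hspa1a and Hspa1b, near copies of each other, measured 101 ± 36.5 and 103 ± 33.5 CPM in sham (SD, n = 3) and 114 ± 42.4 and 109 ± 42.0 CPM contralaterally (SD, n = 4). Their log2 changes of 0.34 ± 0.54 and 0.23 ± 0.53 (SE) turned negative with the surgery day as a block. In the occluded hemisphere Hspa1a measured 1695 to 5280 CPM, and the hemispheres differed by 4.95 ± 0.40 (log2; edgeR adjusted p = 0.00121). Hspa8, the constitutive HSP70, had 0.03 ± 0.15 (SE), and 77.9% of its 28-nt words occur in other genes, so its counts may be shared. Dnajc6, the auxilin that uncoats clathrin vesicles, was the member with an unadjusted edgeR p under 0.05, at -0.38 ± 0.18 (SE; edgeR adjusted p = 0.876). That is 1 of 25 on the lower side, near the 3.13% of all genes. Genes of the integrated stress response had a median of -0.06, with 5 of 12 above 0.

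Prg4 (chr1:150449412-150466165, mm10, minus strand) encodes lubricin, a secreted mucin-like glycoprotein. It measured 31.4, 15.7 and 42.4 CPM in sham and 141, 45.9, 97.6 and 101 CPM contralaterally. Every contralateral library was above every sham library, although contralateral replicate 4 came close to sham replicate 5. The counts behind these levels were 8, 1 and 8 in sham and 21, 6, 29 and 57 contralaterally. The log2 change was 1.54 ± 0.44 (SE; edgeR adjusted p = 0.636), with 2.10 within day 1 and 1.17 within day 5. Ipsilateral values were 172, 235, 74.2 and 344 CPM, and the difference between hemispheres was 1.08 ± 0.31 (log2, SE; edgeR adjusted p = 0.174). Apod, a secreted lipid carrier, measured 122, 78.5 and 106 CPM in sham and 94.3, 275, 168 and 204 CPM contralaterally, with contralateral replicate 1 inside the sham range (0.77 ± 0.30, SE; edgeR adjusted p = 0.795). Of the 25 tested extracellular matrix and secreted genes, 17 lay above 0 with a median of 0.09.

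In cholesterol synthesis 11 of 14 tested genes had higher contralateral values (median 0.18), but with the surgery day as a block 7 of 14 did and the median was -0.03, and without contralateral replicate 4 the median was 0.06. Dhcr7, which catalyses the last step of cholesterol synthesis, measured 39.3, 62.8 and 31.8 CPM in sham and 60.6, 130, 90.8 and 94.1 CPM contralaterally. Contralateral replicate 1 was inside the sham range and the other 3 lay above it (log2 change 1.21 ± 0.35, SE; edgeR adjusted p = 0.636). Sc5d, the desaturase one step before it, measured 78.5, 62.8 and 90.0 CPM in sham and 121, 115, 111 and 121 CPM contralaterally, without overlap (0.54 ± 0.30, SE). Insig1, which holds back the sterol-sensing factor SREBP, had 0.62 ± 0.46 (SE).

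The series concerns brain glutamate balance, and the genes that clear, recycle and sense glutamate were described whatever their values. Of 6 tested transporters 5 had higher contralateral values (median 0.23), and 2 of the 6 had an unadjusted edgeR p under 0.05, where 2.53% of all genes did. Without sham replicate 1, 3 of the 6 lay above 0 and the median was 0.08, and without sham replicate 5 it was 0.39. Slc1a2 (chr2:102658659-102790784, mm10, plus strand) encodes GLT-1, the main astrocytic glutamate transporter. It measured 3385, 3330 and 4098 CPM in sham and 3490, 6623, 4892 and 4449 CPM contralaterally. Contralateral replicate 4 was the highest library, and contralateral replicate 1 was within the sham range. The log2 change was 0.43 ± 0.16 (SE; edgeR adjusted p = 0.771), with 0.04 within day 1 and 0.26 within day 5, and it was 0.26 without contralateral replicate 4, 0.57 without contralateral replicate 1 and 0.22 with the surgery day as a block. Ipsilateral values of 3206 to 4243 CPM gave a difference between hemispheres of -0.35 ± 0.15 (log2, SE; edgeR adjusted p = 0.530).

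Slc1a1, the neuronal transporter EAAT3, measured 208, 94.2 and 228 CPM in sham and 209, 291, 286 and 275 CPM contralaterally (0.47 ± 0.23, SE; edgeR adjusted p = 0.876). The low sham value was that of the shallow replicate 2, and 1216 nt of the transcript overlap a gene on the opposite strand. Slc1a3, the astrocytic transporter GLAST, had 0.25 ± 0.17 (SE) and Slc1a4, a neutral amino acid carrier, 0.17 ± 0.28 (SE). Slc17a7, which loads glutamate into vesicles as VGLUT1, was the member below 0, at -0.15 ± 0.19 (SE).

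Enzymes and carriers of glutamate and glutamine metabolism showed no common direction, with 5 of 12 above 0 and a median of -0.03. Glul, the astrocytic glutamine synthetase, measured 4486 ± 584.3 CPM in sham (SD, n = 3) and 4717 ± 456.9 CPM contralaterally (SD, n = 4), a log2 change of 0.07 ± 0.13 (SE). Glud1, glutamate dehydrogenase, had 0.24 ± 0.22 (SE). Got1, the cytosolic aspartate aminotransferase, measured 907, 1084 and 905 CPM in sham and 754, 734, 801 and 764 CPM contralaterally, without overlap (-0.32 ± 0.15, SE; edgeR adjusted p = 0.876). Slc25a22, a mitochondrial glutamate carrier, had -0.43 ± 0.26 (SE).

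Glutamate receptors had higher contralateral values in 14 of 19 tested genes (median 0.22), and none reached an unadjusted edgeR p under 0.05 in either direction. Every contralateral library lay above every sham library for 3 of the 19 (3.39% of all genes), Gria2, Grin2b and Grm3. Gria2, the AMPA receptor subunit that blocks calcium entry, measured 1194, 785 and 1271 CPM in sham and 1287, 1545, 1272 and 1471 CPM contralaterally (0.33 ± 0.17, SE; edgeR adjusted p = 0.884). Sham replicate 2 was again the low library, and the groups were separated by a narrow margin. Gria1, another AMPA subunit, had 0.36 ± 0.18 (SE), Grm3, a metabotropic receptor prominent in astrocytes, 0.33 ± 0.19 (SE), and Grin2b, an NMDA receptor subunit, 0.15 ± 0.17 (SE). The median within day 1 was 0.11 and within day 5 it was 0.00. Ion pumps and carriers, which restore the gradients that glutamate uptake uses, lay above 0 in 24 of 31 (median 0.14, and 0.09 without sham replicate 2 or contralateral replicate 4).

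**Figure D5:**
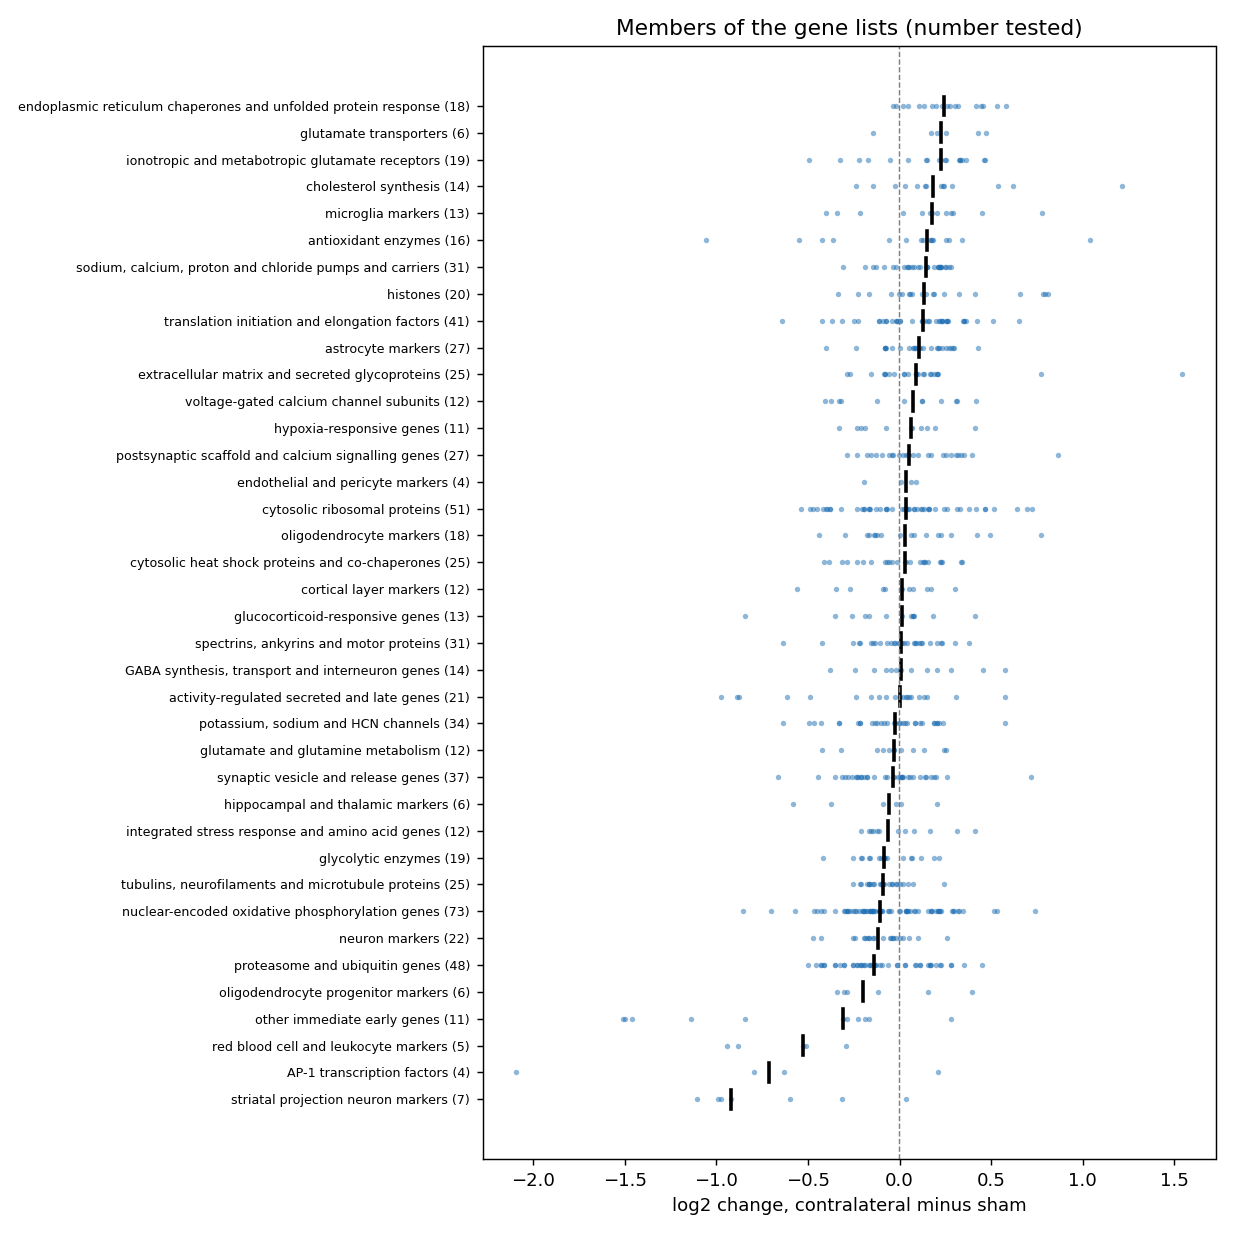
Each row is a gene list with its number of tested genes (lists with at least 4), each point a gene's log2 change (contralateral minus sham, horizontal axis), and the black bar the list median. The dashed line is the median of all 3835 genes (-0.004). Striatal, AP-1, red blood cell and other immediate early gene lists have the lowest medians (-0.92, -0.71, -0.53 and -0.31), and the endoplasmic reticulum list has the highest, 0.24.

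The medians of the glial and neuronal marker lists lay nearer 0. Astrocyte markers lay above 0 in 20 of 27 (median 0.11) and microglia markers in 10 of 13 (median 0.18), while oligodendrocyte markers were split 9 to 9 (median 0.03) and neuron markers lay below 0 in 17 of 22 (median -0.12). Oligodendrocyte progenitor markers lay below 0 in 4 of 6 (median -0.20). Single libraries moved these medians: without sham replicate 1 the astrocyte median was 0.04, with 17 of 27 above 0, and that of the progenitors 0.06, and without contralateral replicate 1 the neuron median was -0.04 and the astrocyte median 0.19. Cx3cr1, the fractalkine receptor of microglia, measured 39.3, 15.7 and 63.5 CPM in sham and 87.6, 68.8, 104 and 58.6 CPM contralaterally, with overlap (0.77 ± 0.36, SE; edgeR adjusted p = 0.862). Gfap, the astrocytic intermediate filament, had 0.23 ± 0.32 (SE). Mbp, a myelin protein, had -0.18 ± 0.24 (SE), and its hemispheres differed by 1.09 ± 0.22 (log2; edgeR adjusted p = 0.00987). Uchl1, a neuronal ubiquitin hydrolase, measured 1378, 1649 and 815 CPM in sham, a range that holds all 4 contralateral values of 864 to 1064 CPM (-0.43 ± 0.17, SE; edgeR adjusted p = 0.795). Neurod6, a transcription factor of pyramidal neurons, measured 114, 94.2 and 127 CPM in sham and 80.8, 38.2, 80.8 and 87.0 CPM contralaterally, without overlap (-0.58 ± 0.27, SE; edgeR adjusted p = 0.876).

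Synaptic release genes were mixed, with 16 of 37 above 0 (median -0.03), and 1 higher and 4 lower at an unadjusted edgeR p under 0.05 (2.53% and 3.13% of all genes). Syt2, a fast calcium sensor of release, measured 133, 78.5 and 132 CPM in sham and 141, 283, 229 and 178 CPM contralaterally (0.72 ± 0.26, SE; edgeR adjusted p = 0.771). Cplx2, a complexin that clamps the fusion machinery, had -0.45 ± 0.20 (SE), Snap91, a clathrin adaptor, -0.35 ± 0.17 (SE), and Bin1, a membrane-bending protein, -0.67 ± 0.25 (SE; edgeR adjusted p = 0.771). Among postsynaptic scaffold genes 17 of 27 lay above 0 (median 0.05), and Shank1, a scaffold of the postsynaptic density, measured 60.4 ± 4.76 CPM in sham (SD, n = 3) and 109 ± 43.8 CPM contralaterally (SD, n = 4), with contralateral replicate 1 below the sham range. Cacna2d1, an auxiliary subunit of calcium channels, had 0.23 ± 0.16 (SE) and differed between hemispheres by -0.78 ± 0.17 (log2; edgeR adjusted p = 0.0147).

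Histone genes, whose messengers mostly lack a poly(A) tail, lay above 0 in 15 of 20 (median 0.13), and 4 of the 20 had an unadjusted edgeR p under 0.05 on the higher side, where 2.53% of all genes did. These were the linker histones Hist1h1c (0.80 ± 0.28, SE; edgeR adjusted p = 0.767), Hist1h1d (0.78 ± 0.36, SE) and Hist1h1e (0.65 ± 0.29, SE) and the core histone Hist3h2a (0.81 ± 0.31, SE). Hist1h1c measured 98.2, 110 and 84.7 CPM in sham and 121, 176, 145 and 199 CPM contralaterally, without overlap. Hist1h1e overlaps Hist1h2be by 496 nt and Hist3h2a overlaps Trim17 by 708 nt, both on the same strand, so their counts may be mixed. The list's median was -0.02 within day 1 and 0.58 within day 5. It was 0.04, with 11 of 20 above 0, without sham replicate 5, and 0.23 and 0.24 without sham replicates 1 and 2.

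Housekeeping groups lay near 0. Cytosolic ribosomal proteins lay above 0 in 28 of 51 (median 0.03). At an unadjusted edgeR p under 0.05, 2 of the 51 were higher, Rps6 (0.47 ± 0.23, SE) and Rpl24 (0.72 ± 0.35, SE). On the lower side 1 was, Rps3 (-0.47 ± 0.22, SE). Of all genes 2.53% were higher and 3.13% lower at that threshold. Of their 28-nt words, 85.2% for Rps6 and 82.8% for Rpl24 occur in other genes, so their counts may be shared. Translation factors had a median of 0.13, with Eif5 at 0.51 ± 0.24 (SE) and Eif3k at -0.64 ± 0.25 (SE). Nuclear-encoded oxidative phosphorylation genes lay below 0 in 44 of 73 (median -0.11). Among them were Cox7a2l at -0.85 ± 0.34 (SE), Atp5g1 at -0.57 ± 0.25 (SE), Sdhd at -0.70 ± 0.31 (SE) and Ndufa12 at 0.74 ± 0.28 (SE). Of the words of Cox7a2l, Atp5g1 and Ndufa12, 24.1%, 15.1% and 59.7% occur in other genes. Proteasome and ubiquitin genes lay below 0 in 31 of 48 (median -0.14), and tubulins, neurofilaments and microtubule proteins in 20 of 25 (median -0.09). Without contralateral replicate 4 the oxidative phosphorylation median was -0.06 and that of the proteasome genes -0.08, and without sham replicate 2 the latter was -0.06. Among 16 antioxidant genes (median 0.15), Gpx1, a glutathione peroxidase, measured 82.5, 126 and 101 CPM in sham and 47.2, 30.6, 63.9 and 39.1 CPM contralaterally, without overlap (-1.06 ± 0.36, SE; edgeR adjusted p = 0.701). Txnip, an inhibitor of thioredoxin, was on the other side, with 8, 0 and 6 counts in sham and 12, 6, 11 and 36 contralaterally (1.04 ± 0.47, SE; edgeR adjusted p = 0.862), and a gene on the opposite strand overlaps 603 nt of it.

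The remaining genes with the smallest p on each side belong to no list used here. Cdh8 (chr8:99024471-99416471, mm10, minus strand), a cadherin of neuronal adhesion, had the smallest p among the higher genes. It measured 74.6, 78.5 and 84.7 CPM in sham and 195, 161, 155 and 174 CPM contralaterally. Neither group reached the other, and the log2 change was 1.10 ± 0.29 (SE; edgeR adjusted p = 0.636), with 1.37 within day 1 and 0.85 within day 5. Ipsilateral values were 209, 264, 136 and 77.4 CPM. S100a1, a calcium-binding protein, measured 62.8, 78.5 and 63.5 CPM in sham and 108, 153, 118 and 117 CPM contralaterally, again with no overlap. Psd3, an exchange factor for the small GTPase ARF6, measured 452, 456 and 567 CPM in sham and 667, 627, 757 and 732 CPM contralaterally (0.50 ± 0.17, SE; edgeR adjusted p = 0.701).

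Also on the higher side were Nsmf (1.22 ± 0.39, SE), a synapse-to-nucleus messenger, Arhgap35 (0.75 ± 0.25, SE), a GTPase-activating protein, Cnn3 (0.97 ± 0.31, SE), an actin-binding calponin, Exd2 (0.82 ± 0.29, SE), a 3′ to 5′ exonuclease, and Gm6768 (0.87 ± 0.29, SE). Of their 28-nt words, 28.9% for Cnn3 and 97.0% for Gm6768 occur in other genes, so reads from those genes may be counted here. On the lower side were Cpne5 (-0.90 ± 0.26, SE), a calcium-dependent membrane-binding copine, Camkk1 (-0.88 ± 0.27, SE), a kinase that activates calmodulin-dependent kinases, Prpf19 (-0.78 ± 0.24, SE), a spliceosomal ubiquitin ligase, Irf2bpl (-0.88 ± 0.28, SE), Map7d1 (-0.72 ± 0.23, SE), a microtubule-binding protein, Fscn1 (-0.60 ± 0.20, SE), an actin bundler, and Adrm1 (-0.83 ± 0.27, SE), a ubiquitin receptor of the proteasome whose words occur to 82.7% in other genes. Their edgeR adjusted p ran from 0.636 to 0.771. Camkk1 measured 137, 188 and 154 CPM in sham and 74.1, 45.9, 97.6 and 88.8 CPM contralaterally, and Irf2bpl 137, 126 and 127 CPM against 60.6, 53.5, 97.6 and 63.9 CPM. In neither gene did the groups overlap.

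The gene with the largest log2 change was not among those with the smallest p. Xylb, the xylulokinase gene, had the highest value of all tested genes, 3.92 ± 2.08 (SE; edgeR adjusted p = 0.940), and is given because of that. It had 29, 12 and 7 counts in sham and 7, 79, 30 and 2753 contralaterally, so a single library, replicate 6, carried the group mean. One ipsilateral library, also replicate 6, had 503 counts. Krt76 and Fign, next in size of log2 change (3.07 and 3.06), also had their highest counts in replicate 6. These were 285 and 551 in the contralateral and 113 and 101 in the ipsilateral library. Contralateral replicate 4, a shallower library, had 43 and 34. Neither gene passed (edgeR adjusted p = 0.943 and 0.933), and the cause was not tested.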

How the data were processed

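Ribosome-protected fragments were isolated from nuclease-digested cortex by monosome purification and capture of the P0 ribosomal protein, selected at 30 to 50 nt and read on a MiSeq as single ends of 69 bp, per the labels' protocols. The authors deposited whole-number counts per Ensembl transcript. Per the submitters' processing notes, Bowtie2, edgeR and the mm10 build were used, with no version given. How reads were counted, and whether by strand, is not given in the sources used here. Each of the 9784 transcripts had a summed count of at least 101, so lower ones are not analysed here, and a filter on all libraries can favour genes high in the deepest ones. GENCODE vM21 matched 9736, and the 48 others (0.306% of counts) were left out. Isoforms of a gene often carried the same counts, so 1 transcript stood for each gene.

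Tests were edgeR 4.0.16 quasi-likelihood F tests in R 4.3.3 over all 11 libraries (filterByExpr with a minimum count of 10, TMM, robust, no block), with Benjamini-Hochberg adjustment over 3835 genes at 0.05, and the scripts were tested on simulated data. The biological coefficient of variation was 0.171. DESeq2 1.42.0 and limma-voom (limma 3.58.1) were alternatives, with other scalings, filters, sample sets, transcript choices, the replicate block and left-out libraries. Levels are CPM after TMM scaling, and within-day values are log2(CPM + 2).

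The replicate number marks the day of surgery, per the series' design text, so numbers pair libraries. The p-values printed for hemispheres are from the fit without a block, although replicates 4, 5 and 6 hold a library of each hemisphere. Deviations from group means correlated at 0.0960 and 0.227 in the 2 same-day pairs of sham and contralateral libraries and at -0.212 to 0.210 in the 10 other pairs. The members and the 42 gene lists were chosen with earlier results of these data known. Genes named with values were the 15 with the smallest p in each direction, up to 4 per list with the smallest p, and a fixed set. That set held glutamate genes, because the series concerns glutamate. It also held activity, chaperone, glial, globin, lubricin and calcium channel genes, because earlier results of these data named them. Calr, Hyou1, Atf6, Pdia3, Herpud1, Coro1a, Grin2b, Penk, Tac1 and Xylb fall outside that rule and were chosen after their values were seen. Krt76 and Fign do too, and they are not among the 99 named genes. A few genes that the rule names are not reported here.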

Additional observations from a re-analysis of the deposited data

Results flagged for a closer look

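A library that stood far from the other 3 of its group was found for these contralateral values, out of 140 groups examined, where chance alone flags about 1 in 20. The number found was close to that share. Ppp1r1b measured 144.7 CPM in replicate 5, the highest of its group and still below sham. Egr1 (130 CPM) and Neurod6 (38.24 CPM) were lowest in replicate 4. Replicate 1 stood apart for Per1 (121.3 CPM) and Tac1 (154.9 CPM), both highest, for Ptgs2 (33.68 CPM), lowest, and for the summed striatal markers (1152 CPM), highest. Xylb measured 4889 CPM in replicate 6.

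The hemispheres differed from each other, by edgeR with adjusted p under 0.05, for 8 of the named genes. As ipsilateral minus contralateral log2 changes, Fos differed by 3.032, Nptx2 by 1.56, Hba-a1 by 1.127, Hba-a2 by 1.145, Mbp by 1.09, Hspa1a by 4.945, Hspa1b by 4.987 and Cacna2d1 by -0.7773. Over all tested genes 14 passed (0.365%). All of the 8 but Hba-a2 were in the set named because of earlier results of these data. The 8 are therefore not to be compared with that share. Hba-a1 with Hba-a2, and Hspa1a with Hspa1b, are near copies and not separate measurements. For Fos, Nptx2, Hba-a1 and Hba-a2 the contralateral mean lay below sham as well as below the occluded side. Both comparisons use the same contralateral libraries, so one is not separate support for the other.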

How the results depend on the processing

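No alternative gave a gene called higher. Genes called lower numbered 0 in the edgeR fit and in every alternative except DESeq2 (2 genes) and the fit without sham replicate 5 (3 genes), so the leave-one-out range was 0 to 3. With the replicate block, pairing libraries by surgery day, 0 genes were called in either direction, 174 had an unadjusted p under 0.05 (217 without it) and the smallest adjusted p was 0.154, for Chd9, so the block changed no call. The count of named genes that differed between hemispheres, 8, ranged down to 4 without contralateral replicate 1 or replicate 6.

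Of 99 named genes, 91 kept their sign under all of the up to 18 alternatives in which they could be fitted. The sign turned with DESeq2 for Bdnf (0.010), with the replicate block for Glul (-0.021), Hspa1a (-0.16) and Hspa1b (-0.25), and with limma-voom for Tac1 (-0.44). Leaving out 1 library at a time turned it for 5 genes, whose ranges were -0.081 to 0.12 for Bdnf, -0.25 to 0.042 for Slc17a7, -0.081 to 0.38 for Slc1a4, -0.11 to 0.19 for Hspa8 and -0.69 to 0.40 for Tac1. The cause was not tested. At the depth of sham replicate 2 (64460 counts) a count of 0 still allows 3 counts, so values of genes under about 10 counts per library are imprecise.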
